A study of Homo sapiens with 16 samples.

Results

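Glucocorticoid hormones such as hydrocortisone cross the cell membrane and bind the glucocorticoid receptor, a transcription factor encoded by NR3C1 that is held by HSP90 and its co-chaperones until hormone arrives. The bound receptor enters the nucleus and switches on target genes, among them SGK (now named SGK1), FKBP5, TSC22D3, DUSP1 and KLF9. Hydrocortisone is a standard component of the medium of breast epithelial cell lines, so these targets are studied here in cells that always had hormone. SGK is also known as a gene of growth factor signaling, and its protein, a kinase related to AKT, is activated downstream of PI3K by PDPK1.

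The 6 genes SGK, FKBP5, TSC22D3, NR3C1, DUSP1 and KLF9 were followed among 18190 gene symbols on the array. They were chosen by symbol, and for each gene the detected probe with the highest mean signal was used. The 6 genes have 10 of the 20589 probes, and the 6 probes used were detected on all 16 arrays. SGK, FKBP5, DUSP1 and KLF9 have 1 probe each, while the other TSC22D3 and NR3C1 probes were detected on 0 to 5 arrays.

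RNA came from MCF-10HER-2 cells (MCF10HER2), made by stable over expression of the HER2 oncogene in the nontransformed breast epithelial line MCF-10A. Cultures received the HER2 kinase inhibitor CP724,714 at 1 µM, and parallel plates were harvested every 3 h from 0 to 45 h, 1 array per time point. All 16 cultures, the untreated 0 h culture included, grew in serum-free and insulin-free Ham's F-12 medium with hydrocortisone, EGF and triiodothyronine. The medium was also renewed when the inhibitor was added. The inhibitor therefore cannot be told apart from renewed hydrocortisone, EGF or other parts of the medium. No later culture without inhibitor was analysed here. The question asked of these 6 genes was whether SGK followed the same course as the other targets of the hormone.

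Between 10363 and 11436 probes were detected on an array, with the least light at 9 h and 18 h (upper quartile intensity 397 and 418, elsewhere 553 to 804). Background intensity was 136 to 149 up to 21 h (8 arrays) and 164 to 174 thereafter (8 arrays). The labels name no chip for either set of 8 arrays, so a difference between the sets cannot be told apart from time. Of 6 markers of mammary epithelium, the probes of KRT5, TP63, CDH1, ITGB4 and SFN were detected on 14 to 16 arrays and that of KRT14 on 1. Median intensities were 27441 for KRT5, 9087 for ITGB4 and 6047 for SFN. Those of TP63 (277) and CDH1 (261) were low, below that of PECAM1. Of 8 markers of blood, endothelial, stromal or liver cells, PECAM1 was detected on 16 arrays at a median intensity of 332, PTPRC on 7 arrays at 201, and the other 6 on 0 to 2 arrays.

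Promoter windows of the 6 genes were read from RefSeq (GRCh38.p14), with 250 bases before and 50 bases after each of 18 annotated starts. The glucocorticoid receptor binds as a pair to AGAACA and TGTTCT spaced by 3 bases. This exact palindrome was in none of the 18 windows, and in 1 of all 35116 RefSeq windows (0.00285%). Its absence here therefore says little about the 6 genes, and imperfect forms of it were not searched. A single AGAACA or TGTTCT, searched on both strands, was in 14.8% of all windows. It occurred once for SGK, at bases 6 to 11 of the transcript from one of its 3 starts (chr6:134177839-134177868, minus strand), and once for FKBP5, at bases 1 to 6 from one of its 2 starts (chr6:35728566-35728595, minus strand). DUSP1, a gene known to respond to cyclic AMP as well as to hormone, held the cyclic AMP response element TGACGTCA, at -125 to -118 of its only start (chr5:172771302-172771331, minus strand). That element was in 1.85% of all windows, and TGACGT, which lies within it, was in 7.98% and occurred at -172 to -167 of DUSP1 as well. The 3 stretches are shown because they hold the receptor hexamer or the cyclic AMP element, which are in capitals. A match is a description of the letters and not of a bound site, and receptor sites can lie far outside such windows.
SGK: ggggttcataacAGAACAgggatagccgtc
FKBP5: caccactaccccAGAACAaactcctacctc
DUSP1: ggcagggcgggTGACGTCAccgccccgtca

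SGK was highest in the untreated culture and lower at every later time point. The 8 arrays taken every 3 h from 0 to 21 h gave SGK a log2 normalized signal of 12.90, 11.60, 12.29, 12.15, 12.10, 12.17, 11.73 and 11.84, and the 8 arrays taken every 3 h from 24 to 45 h gave 12.02, 11.81, 11.80, 11.96, 11.90, 12.04, 12.03 and 11.89. The 3 h array was the lowest of all, the arrays from 6 to 15 h stood higher than it, and from 18 h onward the gene stayed within a narrow band. The mean of the 15 treated arrays lay below the 0 h array by 0.94 on the log2 scale (difference -0.94, SE 0.19, limma adjusted p = 0.00174), which assumes that the lone untreated array varies as the others do. This call held in all 22 alternatives (difference -1.12 to -0.88). Each of them uses the same 0 h array, so they cannot test the value on which the call rests. SGK was the only 1 of the 6 genes called in this comparison, against 10.3% of the 12321 tested probes called lower and 8.62% called higher than at 0 h. In RNA from whole cultures, fewer cells with the transcript and less transcript per cell cannot be told apart.

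No change over time in SGK passed the test in the fit to all 16 arrays. Its adjusted p was 0.272 for a spline curve and 0.228 for a straight line, with a linear change of -0.37 (SE 0.21) on the log2 scale over 45 h. Both values depended on single arrays. Without the 0 h array the linear change was -0.07 (adjusted p = 0.815), and with array weights it was -0.004 (adjusted p = 0.988). Without the 3 h array, SGK fell by 0.57 on the log2 scale over the course (adjusted p = 0.0407, range 0.0407 to 0.988 over the alternatives), and the spline had an adjusted p of 0.0011 (range 0.0011 to 0.89). From 24 to 45 h its change was 0.08 (SE 0.12, adjusted p = 0.697).

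**Figure D1:**
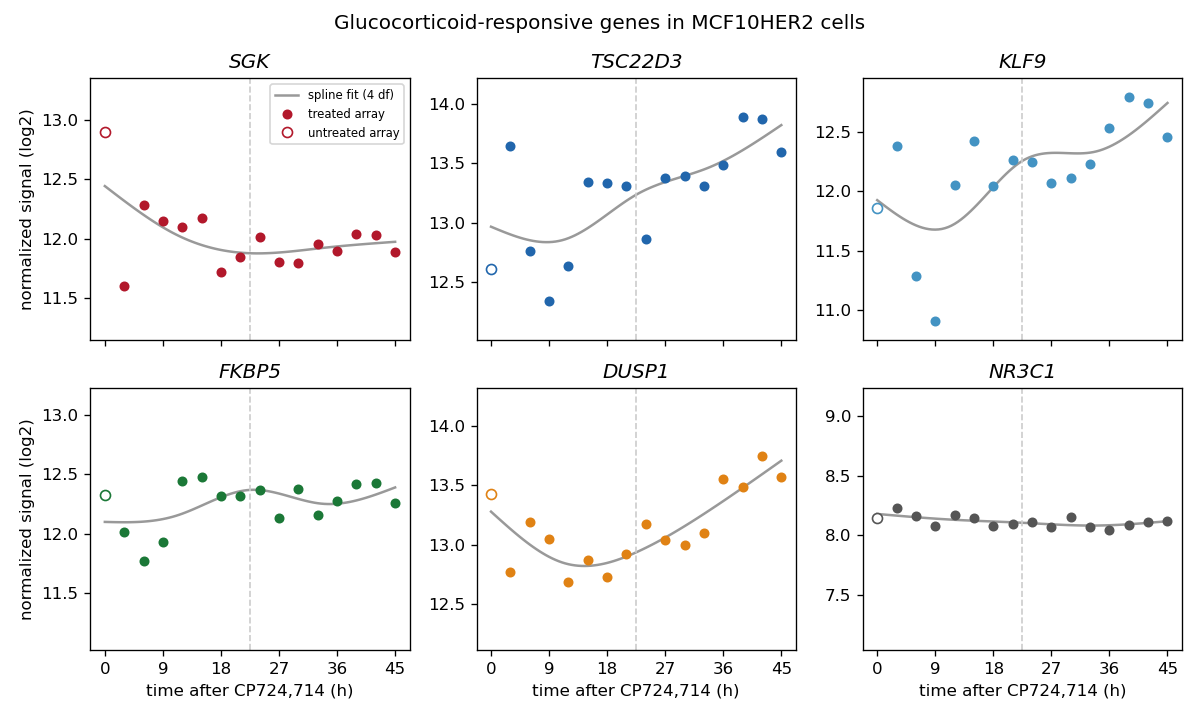
Normalized signal (log2, y axis, each panel spanning the same log2 range) of the 6 genes against hours after CP724,714 (x axis), 1 point per array, with the untreated array open and the fitted spline in grey. The dashed line parts the arrays from 0 to 21 h and from 24 to 45 h. SGK falls from 12.90 to 11.60 between 0 and 3 h and TSC22D3 rises from 12.61 to 13.65, whereas TSC22D3, KLF9 and DUSP1 reach their highest values at 39 or 42 h.

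TSC22D3, which encodes the anti-inflammatory leucine zipper protein GILZ, moved the other way. In the same order of time, TSC22D3 read 12.61, 13.65, 12.77, 12.34, 12.64, 13.34, 13.34 and 13.31 (log2) on the first 8 arrays and 12.86, 13.38, 13.40, 13.31, 13.49, 13.89, 13.88 and 13.59 on the last 8. It was high at 3 h, near its untreated level from 6 to 12 h, above it on all arrays from 15 h, and highest at 39 h. TSC22D3 rose by 0.99 (SE 0.25) on the log2 scale over 45 h in the linear fit (adjusted p = 0.00789). The spline also passed (adjusted p = 0.0449), but this call was lost without any one of the 6, 9, 12, 21, 27, 30, 36, 39 or 42 h arrays (range 0.00343 to 0.145 over the alternatives). The mean of its treated arrays was 0.66 (SE 0.31) above the 0 h array, which did not pass (adjusted p = 0.147), and passed without the 3 h array (0.64, adjusted p = 0.0435) or the 9 h array (0.73, adjusted p = 0.0496; range 0.0435 to 0.352).

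KLF9, a Krüppel-like transcription factor, resembled TSC22D3 but dipped lower. KLF9 gave 11.86, 12.38, 11.29, 10.91, 12.05, 12.42, 12.05 and 12.26 (log2) from the untreated array through 21 h, and 12.24, 12.07, 12.11, 12.23, 12.53, 12.79, 12.74 and 12.46 in the second set of 8. Of the treated arrays, only those at 6 and 9 h lay below the untreated one, and the 4 arrays from 36 h onward were the 4 highest. KLF9 rose by 0.98 (SE 0.28) over 45 h (adjusted p = 0.0166). It had the widest span of the 6 genes, 3.70-fold between 9 and 39 h, and the spline missed the threshold (adjusted p = 0.0664). Without the 3, 15 or 45 h array the spline passed (adjusted p 0.0313 to 0.035; range 0.0109 to 0.284 over the alternatives).

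DUSP1, the dual-specificity phosphatase that removes phosphate from p38, JNK and ERK, stood below its untreated level early, as SGK did, and was highest late, as TSC22D3 and KLF9 were. For DUSP1 the log2 signals up to 21 h were 13.42, 12.77, 13.19, 13.05, 12.68, 12.87, 12.73 and 12.93, followed by 13.17, 13.04, 13.00, 13.10, 13.55, 13.49, 13.75 and 13.57 up to 45 h. All arrays from 3 to 33 h lay below the untreated one and all 4 arrays from 36 h lay above it. The curve of DUSP1 passed the spline test (adjusted p = 0.0023, range 0.000589 to 0.0382 over the alternatives). Its linear change of 0.60 (SE 0.20, adjusted p = 0.0372) summarises a course that was low first and high later, and lost its call without any one of the 3, 12, 36, 39, 42 or 45 h arrays (range 0.000196 to 0.757).

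FKBP5, a co-chaperone of HSP90 that lowers the receptor's affinity for hormone, kept to a narrower range. Its successive log2 signals were 12.33, 12.02, 11.77, 11.93, 12.44, 12.47, 12.32 and 12.31 in the first 8 arrays and 12.36, 12.13, 12.37, 12.16, 12.28, 12.42, 12.42 and 12.25 in the remaining 8. The 3 lowest values were those at 3, 6 and 9 h, and from 12 h the gene was near its untreated level. Neither its spline (adjusted p = 0.467) nor its linear change of 0.25 (SE 0.15, adjusted p = 0.259) passed.

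NR3C1, the receptor itself, had the narrowest span of the 6 genes on this scale. Its log2 signal lay between 8.04 at 36 h and 8.23 at 3 h, with a median of 8.11, so that the highest array was 1.13 times the lowest. The span of this dim probe depends on the background correction, being 1.40-fold without correction and 1.57-fold with normexp and an offset of 50, next to 1.59-fold for FKBP5 in the latter. Its linear change was -0.08 (SE 0.04, adjusted p = 0.131), and a second probe of the gene, detected on 5 arrays, changed by -0.02 (SE 0.03, adjusted p = 0.587). Without the 9 h and 18 h arrays the linear change of NR3C1 passed (-0.10, adjusted p = 0.0436). With scaling to the median of the tested probes, chosen after seeing the data, its linear change (-0.17, adjusted p = 0.0201) and its spline (adjusted p = 0.0383) passed.

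The first 3 h parted the members. SGK changed by -1.29 on the log2 scale, the 50th lowest of 12321 tested probes, and TSC22D3 by 1.04, the 54th highest. At the 1.7-fold criterion that the study used, SGK was lower at 3 h, as were 2.35% of all tested probes, and TSC22D3 was higher, as were 1.46%. DUSP1 changed by -0.65, FKBP5 by -0.31, KLF9 by 0.52 and NR3C1 by 0.08, all short of the criterion. These values depend on how the arrays are scaled: with median scaling the 3 h change was -2.06 for SGK, -1.33 for DUSP1, -0.99 for FKBP5 and 0.39 for TSC22D3, and that of KLF9 turned to -0.12 and that of NR3C1 to -0.02. SGK stayed below and TSC22D3 above the 0 h array at 3 h under every scaling tried.

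Counted over the whole course, SGK, TSC22D3 and KLF9 reached 1.7-fold from 0 h at some time point, and did so at 2 consecutive time points in 1 direction. Of all tested probes, 19.5% met the first criterion and 13.7% the second. SGK was 1.7-fold lower at 12 time points and TSC22D3 was 1.7-fold higher at 6, whereas KLF9 was higher at 2 and lower at 1. All these values share the single 0 h array.

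Over 45 h, 3 of the 6 genes rose in the linear fit (TSC22D3, KLF9 and DUSP1) and 0 fell, against 12.9% of all tested probes rising and 11.5% falling. Only 2 of the 6, DUSP1 and TSC22D3, passed the spline test, against 41.9% of all tested probes, so that a share of members near the background was time-dependent. Within the arrays from 24 to 45 h, the same 3 genes rose: TSC22D3 by 0.77 (SE 0.16, adjusted p = 0.00259), DUSP1 by 0.68 (SE 0.14, adjusted p = 0.00245) and KLF9 by 0.60 (SE 0.16, adjusted p = 0.0126) over 21 h. In these arrays 12.0% of all tested probes rose and 12.8% fell, and SGK, FKBP5 and NR3C1 did not pass. For TSC22D3, KLF9 and DUSP1 every array from 36 to 45 h was higher than every array from 24 to 33 h, a division into windows chosen after the values were seen. The means of these windows were 13.71 and 13.23 for TSC22D3, 12.63 and 12.16 for KLF9, and 13.59 and 13.08 for DUSP1, but 11.97 and 11.90 for SGK. Within the arrays from 0 to 21 h, 0 of the 6 genes passed the linear test (5.79% of all tested probes rose and 5.49% fell), and DUSP1 changed by -0.42 (SE 0.22, adjusted p = 0.216), opposite to its later rise. With the 2 sets of arrays as a block in the fit to all 16, the linear changes were 1.31 for TSC22D3 (adjusted p = 0.143), 1.15 for KLF9 (0.269) and 0.28 for DUSP1 (0.757), and 0 of the 6 genes passed, against 3.38% of all tested probes rising and 2.78% falling in that fit. The spline test then called 1 of the 6 genes, DUSP1, and 29.0% of all tested probes.

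Whether SGK followed the other genes was tested on the log2 difference between SGK and each of them. The difference fell with time for 4 of the 5 genes. For SGK minus DUSP1, Pearson's r with time was -0.85 (permutation p = 5e-05, adjusted over 5 differences 0.00025; rho = -0.84, adjusted 0.00065). For SGK minus KLF9, r was -0.66 (permutation p = 0.00468, adjusted 0.0117; rho = -0.58, adjusted 0.0373). For SGK minus TSC22D3, r was -0.64 (permutation p = 0.00741, adjusted 0.0124; rho = -0.58, adjusted 0.0373). The signal of SGK relative to these 3 genes thus fell on both measures of correlation. These 3 genes rose in the linear fit and SGK had no trend that passed, so the falls are in part their rises. All 5 differences share the SGK values and are not separate tests. For SGK minus FKBP5, r was -0.56 (permutation p = 0.0229, adjusted 0.0286), while rho was -0.39 (adjusted 0.18). For SGK minus NR3C1, r was -0.32 (permutation p = 0.24) and did not pass.

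The calls depended in part on the 0 h array. With the first and last arrays (0 and 45 h) left out, r was -0.77 for SGK minus DUSP1 (permutation p = 0.00115) and -0.57 for SGK minus KLF9 (permutation p = 0.0301). It was -0.52 for SGK minus TSC22D3 (permutation p = 0.0596) and -0.44 for SGK minus FKBP5 (permutation p = 0.119). Without the 45 h array alone both stayed past the threshold (r = -0.63, adjusted permutation p = 0.0197 for TSC22D3; r = -0.58, 0.0282 for FKBP5). Without the 0 h array alone, TSC22D3 (adjusted p = 0.0658 by permutation, range 2.5e-05 to 0.0658) and FKBP5 (0.143, range 0.00681 to 0.143) were no longer called. FKBP5 was not called without the 6 h (0.0705) or the 9 h array (0.0527) either, whereas without the 3 h array SGK minus NR3C1 was called as well (adjusted permutation p = 0.0107).

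Within the arrays from 24 to 45 h, the difference fell for SGK minus DUSP1 (r = -0.85, exact p = 0.0129), SGK minus KLF9 (r = -0.84, exact p = 0.0182) and SGK minus TSC22D3 (r = -0.75, exact p = 0.0195), each with an adjusted p of 0.0325. In the same arrays it did not for FKBP5 (r = -0.01) or NR3C1 (r = 0.23). Within the arrays from 0 to 21 h none of the 5 differences passed, the lowest exact p being 0.0625 for FKBP5 (r = -0.70). Arrays follow each other in time and are not freely exchangeable, which a permutation assumes.

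**Figure D2:**
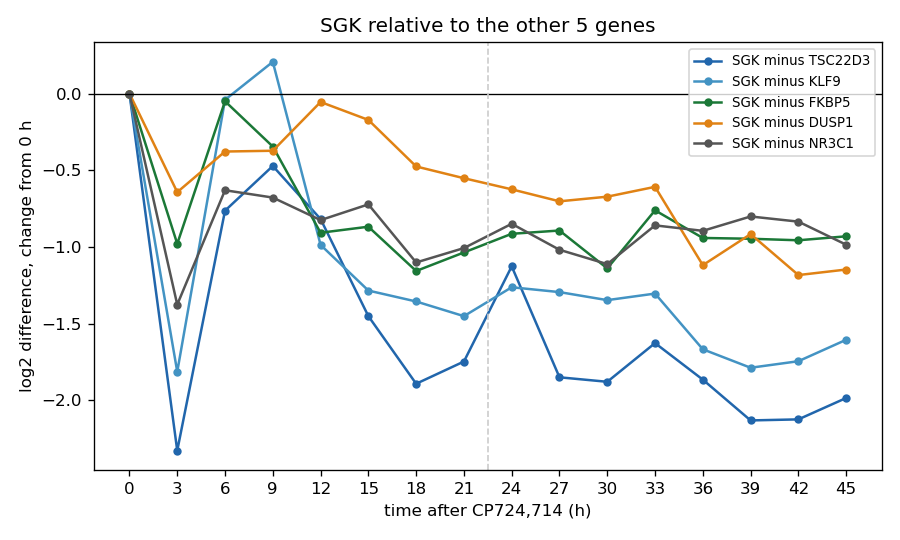
Log2 difference of SGK minus each of the other 5 genes, shown as its change from 0 h (y axis), against hours after CP724,714 (x axis), 1 point per array. Every difference is below 0 at 3 h, and at 45 h SGK minus TSC22D3 stands at -1.99, SGK minus KLF9 at -1.61, SGK minus DUSP1 at -1.15, SGK minus NR3C1 at -0.99 and SGK minus FKBP5 at -0.93.

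SGK was correlated over the 16 arrays with none of the 5 other genes after adjustment. Its r was -0.57 with TSC22D3 (permutation p = 0.0183, adjusted over 5 pairs 0.0917), -0.34 with KLF9, 0.02 with FKBP5, 0.08 with NR3C1 and 0.31 with DUSP1 (adjusted p 0.408 to 0.928 by permutation). When the arrays at 0 and 3 h, farthest from the SGK median, were left out, r was -0.45 with TSC22D3 and 0.08 with DUSP1. Spearman's rho was -0.50 with TSC22D3 (adjusted 0.256 by permutation) and 0.31 with DUSP1 (adjusted 0.482). Among all other tested probes, TSC22D3 was the 124th lowest of 12320 in its correlation with SGK. The negative values depend on the scaling: with median scaling r was 0.01 with TSC22D3 and 0.25 with KLF9, and with scaling to the median of the tested probes -0.20 and 0.07.

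The step from one array to the next gave a different order. SGK and DUSP1 moved in the same direction in 12 of 15 steps, with r = 0.77 between their changes (permutation p = 0.00065, adjusted 0.00325; rho = 0.68, adjusted 0.0366). SGK and TSC22D3 moved in the same direction in 6 of 15 steps, with r = -0.67 (permutation p = 0.00808, adjusted 0.0202; rho = -0.46, adjusted 0.216). Without the steps to 3 and 6 h, SGK and DUSP1 moved in the same direction in 10 of 13 steps with r = 0.46 (permutation p = 0.112). For TSC22D3 r was then 0.01, so its relation rests on those steps, and that of DUSP1 rests on them in part. The steps of SGK and DUSP1 had an r of 0.89 from 0 to 21 h (exact p = 0.00694). From 24 to 45 h it was 0.21 (exact p = 0.665). Within the arrays from 0 to 21 h, SGK and DUSP1 were also correlated in level (r = 0.84, exact p = 0.00915, adjusted 0.0458). In level from 24 to 45 h, r with SGK was 0.53 for DUSP1 (exact p = 0.18), 0.70 for KLF9 (exact p = 0.0603) and 0.52 for FKBP5 (exact p = 0.183). None of these passed, and DUSP1 did not stand apart there. Successive steps share an array, so a single deviating array enters both, and they are not freely exchangeable, which a permutation assumes.

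Among the other members, TSC22D3 and KLF9 were alike. Their r over 16 arrays was 0.84 (permutation p = 2e-05, adjusted over 10 pairs 0.0002; rho = 0.84, adjusted 0.0009), and 0.77 without the 0 h and 9 h arrays. It was 0.80 from 0 to 21 h (exact p = 0.0105, adjusted 0.105) and 0.76 from 24 to 45 h (exact p = 0.0268, adjusted 0.134). KLF9 was the 15th most like TSC22D3 of 12320 other probes. KLF9 and FKBP5 had an r of 0.69 (permutation p = 0.00577, adjusted 0.0289), which was 0.17 without the 6 h and 9 h arrays, where both genes were low, and so rests on those arrays. The other 8 of these 10 pairs did not pass.

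**Figure D3:**
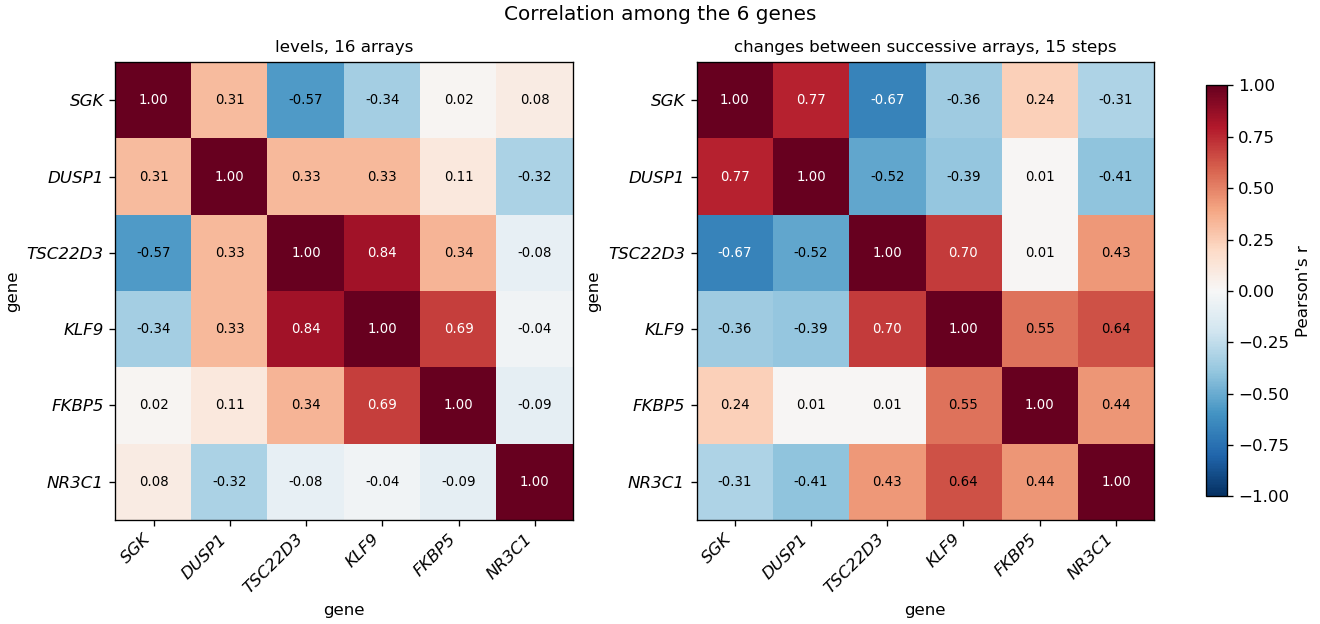
Pearson's r (colour and number) between each pair of the 6 genes (both axes), for log2 levels over 16 arrays on the left and for changes between successive arrays over 15 steps on the right. TSC22D3 and KLF9 stand at 0.84 in levels and 0.70 in steps (0.49 without the steps to 3 and 6 h). SGK and DUSP1 stand at 0.31 in levels and 0.77 in steps (0.46 without those steps).

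The 5 probes most like SGK in level over the 16 arrays were those of BIK (r = 0.87), RHOB (r = 0.85), ADM (r = 0.85), KLF2 (r = 0.84) and SOCS1 (r = 0.84). The 3 most opposite were TXNIP (r = -0.83), POLG2 (r = -0.79) and ARL17P1 (r = -0.79), the last detected on 7 arrays. None of the other 5 hormone-responsive genes was among them, which says little, because so few of all tested probes are listed.

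**Figure D4:**
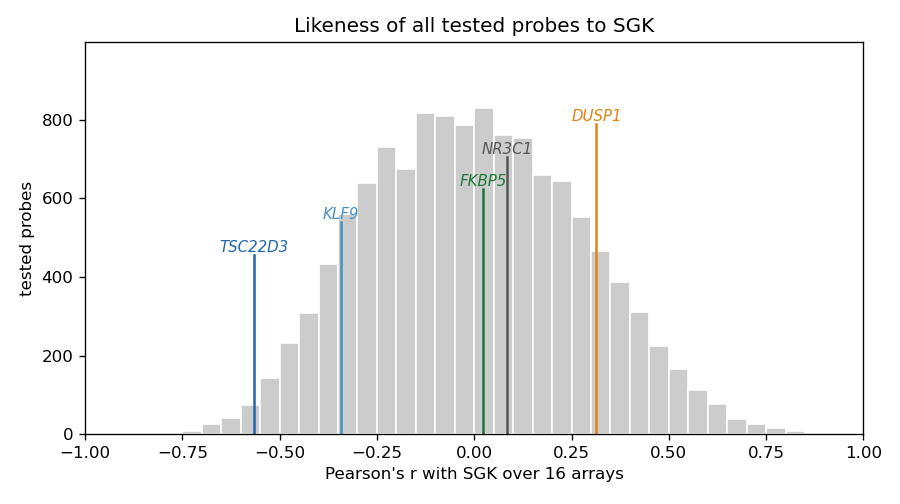
Number of tested probes (y axis) by Pearson's r with SGK over 16 arrays (x axis, bins of equal width), with the other 5 genes marked by vertical lines whose heights carry no value. On quantile-normalized values TSC22D3 lies in the lower tail at -0.57 (0.01 with median scaling) and DUSP1 on the upper side at 0.31, with KLF9, FKBP5 and NR3C1 between them.

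A wider list of 28 genes known to be induced by glucocorticoids in some tissue did not move as one. It was drawn from general knowledge, but with earlier results of these data known. Its shares beside those of all tested probes therefore only describe the list. Of these, 27 were tested (IGFBP1 was not detected), and 20 of them (74.1%) passed the spline test, against 41.9% of all tested probes. In the linear fit 10 rose and 3 fell (12.9% and 11.5% of all tested probes), and their median linear change was 0.03, against -0.00219 over all tested probes. With median scaling 11 rose and 1 fell, and with scaling to the median of the tested probes 11 rose and 5 fell. The largest rises were in GADD45B, a growth arrest and stress gene (2.01, SE 0.32, adjusted p = 0.000171), CITED2, a co-regulator that binds p300 and CBP (1.72, SE 0.33, adjusted p = 0.00101), and ZBTB16, a zinc finger repressor (1.59, SE 0.25, adjusted p = 0.000176). BCL6, ERRFI1, CEBPD, SCNN1A, MAOA and GLUL passed both fits and rose in the linear one, under every scaling tried for the latter.

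The falls were in BIRC3, an inhibitor of apoptosis (-1.17, SE 0.28, adjusted p = 0.00447), DDIT4, an inhibitor of mTORC1 (-0.71, SE 0.10, adjusted p = 9.3e-05), and LCN2, which binds bacterial siderophores (-0.62, SE 0.12, adjusted p = 0.00109). With median scaling BIRC3 (adjusted p = 0.055) and DDIT4 (0.0666) kept their direction and did not pass. The deposited detection p-value of BIRC3, below the threshold on 6 arrays, did not follow its median intensity of 787, and ZBTB16 and PDPK1 are also among the probes with unusual detection p-values. Against the untreated array 8 of the 27 genes were higher and 6 lower (8.62% and 10.3% of all tested probes).

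With the 2 sets as a block, 3 of the 27 genes rose (GLUL, ZBTB16 and GADD45B) and 1 fell (DDIT4), against 3.38% and 2.78% of all tested probes, and 15 passed the spline test, against 29.0%. From 24 to 45 h, 12 of the 27 rose and 1 fell (12.0% and 12.8% of all tested probes). GADD45B rose by 1.88 (SE 0.27, adjusted p = 0.00026), CITED2 by 1.92 (SE 0.22, adjusted p = 9.61e-05) and ZBTB16 by 1.20 (SE 0.18, adjusted p = 0.000349) over these 21 h. BIRC3 (-0.13, adjusted p = 0.398) and LCN2 (-0.05, adjusted p = 0.6) did not pass there. From 0 to 21 h, 0 rose and 2 fell (5.79% and 5.49%).

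**Figure D5:**
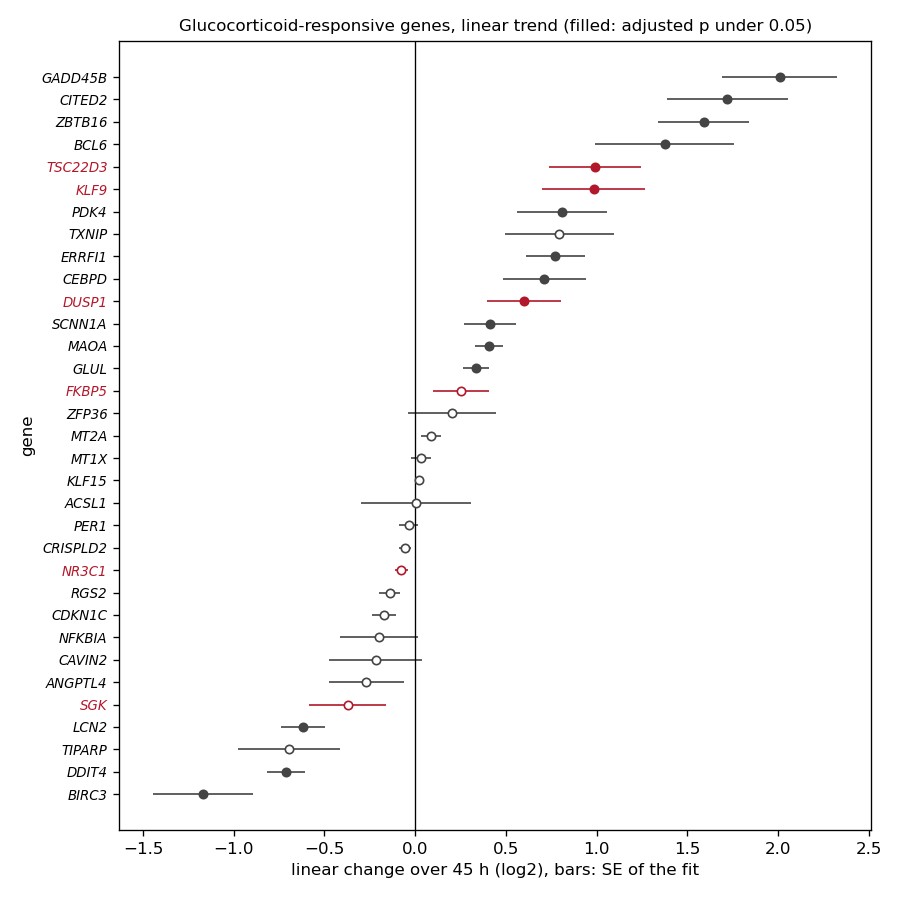
Linear change over 45 h (log2, x axis) with its SE for the 6 genes (red) and the 27 tested genes of the wider glucocorticoid-induced list (black), 1 gene per line on the y axis, filled where the adjusted p is under 0.05. GADD45B (2.01) and BIRC3 (-1.17) mark the ends, with TSC22D3 at 0.99, KLF9 at 0.98, DUSP1 at 0.60, FKBP5 at 0.25, NR3C1 at -0.08 and SGK at -0.37.

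Of 18 genes of hormone handling and of the receptor complex, 15 were tested and 9 passed the spline test (41.9% of all tested probes did), 3 rose in the linear fit and 0 fell (12.9% and 11.5%). HSD11B2, the enzyme that turns cortisol into inactive cortisone, rose by 2.17 (SE 0.25, adjusted p = 7.27e-06). HSD11B1, which catalyses the reverse reaction, was not detected on any array and was not tested. HSPA8, a constitutive HSP70 chaperone, rose by 0.57 (SE 0.17, adjusted p = 0.0193), and BAG1, a co-chaperone of HSP70, by 0.15 (SE 0.04, adjusted p = 0.0148). BAG1 did not pass with scaling to the median of the tested probes (0.05, adjusted p = 0.578). With the sets as a block HSD11B2 (2.31, SE 0.51, adjusted p = 0.0137) and BAG1 (0.32, SE 0.08, adjusted p = 0.022) passed and HSPA8 did not (0.46, SE 0.35, adjusted p = 0.492). HSPA8 rose by 0.75 from 0 to 21 h (SE 0.15, adjusted p = 0.0177) and changed by -0.32 from 24 to 45 h (SE 0.10, adjusted p = 0.0247). In the arrays from 24 to 45 h, 6 of the 15 genes rose and 3 fell (12.0% and 12.8% of all tested probes). The falls besides HSPA8 were in HSP90AA1 (-0.48, SE 0.15, adjusted p = 0.0235) and PTGES3 (-0.51, SE 0.16, adjusted p = 0.0309). The rises were in HSD11B2 (1.63), CREBBP (0.75), DNAJB1 (0.67, SE 0.11, adjusted p = 0.000807), NCOA3 (0.41), BAG1 (0.18) and NCOA1 (0.11). The probe of NCOA1 has unusual detection p-values. HSP90AA1 and HSPA8 each have another tested probe, whose change is not given here. From 0 to 21 h, 1 rose and 2 fell (5.79% and 5.49%).

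Of 7 genes around the SGK kinase, 6 were tested (SGK2 was not detected), 3 passed the spline test (41.9% of all tested probes did), and 0 rose and 1 fell in the linear fit (12.9% and 11.5%). The fall was in PDPK1, the kinase that activates SGK (-0.12, SE 0.03, adjusted p = 0.00595), which did not pass with median scaling (-0.08, adjusted p = 0.0593) or with the sets as a block (-0.11, adjusted p = 0.295). SGK3, the related kinase, changed by -0.04 (SE 0.05, adjusted p = 0.632). NDRG1, whose protein SGK phosphorylates, changed by -0.42 (SE 0.28, adjusted p = 0.314) over the course and was highest at 24 h. From 24 to 45 h, 1 of the 6 tested genes rose and 1 fell (12.0% and 12.8% of all tested probes). NDRG1 fell (-0.88, SE 0.25, adjusted p = 0.017). FOXO3, whose probe has unusual detection p-values, rose (0.50, SE 0.16, adjusted p = 0.0282). From 0 to 21 h, 0 rose and 0 fell (5.79% and 5.49%).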

How the data were processed

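The authors deposited, for each of 20589 probes of an Illumina human Ref-8 v2 array, the intensity before normalization between arrays and a detection p-value against negative controls. The image software is not given in the sources used here. The study's methods used quantile normalization. Here intensities were background-corrected and quantile-normalized with neqc (offset 16) in limma 3.58.1 (R 4.3.3) and taken to log2. Testing was limited to the 12321 probes whose detection p was below 0.05 on at least 3 arrays. Of all probes, 1504 had a detection p that was no whole number of the 708 negative controls, none of them a probe of the 6 genes, and leaving them out was tried. Fits were lmFit and eBayes with a trend: a spline in hours (natural cubic, 4 df), a straight line, and the treated mean minus the 0 h array with a 3 df spline. P-values were adjusted by Benjamini-Hochberg over all tested probes, with 0.05 as the threshold. Each time point has 1 array, so error is judged only from the scatter about a curve, and the number of arrays limits the precision.

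Permutation tests were two-sided, with 100000 permutations (1e-05 is the smallest p they can give), and exact over all 40320 orders within 8 arrays. The 6 genes and all lists were chosen with earlier results of these data known. Named were the 6 genes, listed genes past both the spline and the linear threshold with at most 3 rises and 3 falls per list given with values, and the 5 probes most and 3 least like SGK. SGK3, NDRG1, FOXO3, HSP90AA1, PTGES3, CREBBP, DNAJB1, NCOA3, NCOA1, HSD11B1 and the genes that were not detected were named beyond this rule, after their values were seen. The alternatives changed the normalization, background correction, detection filter, spline, array weights, array set, dim or single arrays, the probe of a gene, and the fold criterion. The scripts were tested on simulated data.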

Additional observations from a re-analysis of the deposited data

Results flagged for a closer look

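A second NR3C1 probe, outside the values used for the gene, was detected on 5 arrays. It is listed because a signal appeared there in data that the comparisons do not use, and with 5 of 16 arrays detected it gives little information on the receptor.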

How the results depend on the processing

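No paired analysis was possible because there is a single array at every time. The time-dependent members, 2 in all, were 1 without a filter on dim probes, 1 with the array set as a block and 1 without the 9 h and 18 h arrays; leaving out single arrays gave 1 to 4, with 4 without the 3 h array. The members with a linear trend, 3 in all, were 0 with the array set as a block and 0 in the arrays from 0 to 21 h alone, where DUSP1 reversed (-0.90 when scaled to 45 h, adjusted p = 0.216). They were 4, with NR3C1 gained, without the 9 h and 18 h arrays and also 4 with scaling to the median of the tested probes. The members that differed from 0 h, 1 in all, were 2 without the 3 h or the 9 h array, and 1 to 2 over single arrays left out. The members past 1.7-fold, 3 in all, were 5 with median scaling, and 5 with scaling to the median of the tested probes, which was chosen after seeing the data. The differences of SGK that fell with time, 4 in all, were 2 to 5 over single arrays left out, with 2 without the 0 h array. The genes correlated with SGK, 0 in all, were 2 with median scaling (FKBP5, r = 0.62, and DUSP1, r = 0.65) and 2 with successive differences. Of 721 values of single genes under an alternative, 661 kept direction and side of the threshold, 14 that were not called changed sign, 28 lost the call, 17 gained it and 1 reversed; the causes were not tested. Among all tested probes the share of rises among linear calls was 52.7%, 80.5% with median scaling (2409 rises and 585 falls) and 35.6% with scaling to the median of the tested probes (1637 and 2960). Leaving out the 1504 probes with an unusual detection p, also chosen after seeing the data, changed no count of members. Fits of the wider lists with the array sets as a block or apart, and spans under other corrections, were added after seeing the data. Signal over background limits NR3C1, the dimmest of the 6 genes.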

Other observations

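The probes most like TSC22D3 over the 16 arrays, a choice made after seeing the data, were those of PDK4 (r = 0.89), C9orf85 (r = 0.89), MGC17330 (r = 0.87), BCL6 (r = 0.87) and PPFIBP2 (r = 0.87). PDK4, a kinase that inhibits pyruvate dehydrogenase, and BCL6, a transcriptional repressor, are in the wider list of glucocorticoid-induced genes. Between 0 and 3 h BCL6 changed by 1.83 and PDK4 by 1.25 on the log2 scale, beside 1.04 for TSC22D3. The probes most like KLF9 were those of HIBADH (r = 0.92), IMMP2L (r = 0.91), TEX2 (r = 0.90), PTPLB (r = 0.90) and RPS6KA2 (r = 0.90). Their changes between 0 and 3 h lay between -0.05 for IMMP2L and 0.21 for RPS6KA2, against 0.52 for KLF9. TXNIP, the probe most opposite to SGK and also a gene of the wider list, changed by 2.12 between 0 and 3 h. The mean of its treated arrays lay 1.59 above the 0 h array. TXNIP was picked on these same 16 arrays, so both values only describe it.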
